A study of Saccharomyces cerevisiae with 21 samples.

Results

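Purine biosynthesis genes of budding yeast were followed in 2 mutants of the Mediator tail, grown in 2 media. The members are the 10 listed ADE genes ADE1, ADE2, ADE3, ADE4, ADE5,7, ADE6, ADE8, ADE12, ADE13 and ADE17, taken by name. The list was chosen with earlier results of these data known. Of these, 9 were measured, each by 1 probe set, out of 5449 genes tested. ADE5,7 was matched to no probe set and is not analysed here. The RefSeq gene table gives the members' systematic names as YAR015W (ADE1), YOR128C (ADE2), YGR204W (ADE3), YMR300C (ADE4), YGR061C (ADE6), YDR408C (ADE8), YNL220W (ADE12), YLR359W (ADE13) and YMR120C (ADE17).

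The de novo pathway builds the purine ring step by step on phosphoribosyl pyrophosphate (PRPP) until inosine monophosphate (IMP) is made, and IMP is then turned into AMP or GMP. One-carbon units carried on folate enter the ring at several steps, and an intermediate released by histidine synthesis joins the pathway near its end. In yeast many ADE genes are activated by the transcription factors Bas1 and Pho2 and are repressed when adenine is supplied. Gal11 (also called Med15) and Med3 belong to the tail of Mediator, the coactivator complex through which activators contact RNA polymerase II.

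Transcript levels were measured on 21 arrays in 7 groups of 3, with RNA of cultures in mid-log growth at 30 °C, labelled with biotin. Wild type and both mutants were grown in YPD, a rich medium, and in CSM, a synthetic medium, and BY4742 in YPD alone. The wild type was labelled MATa his3Δ1 leu2Δ0 met15Δ0 ura3Δ0 and is BY4741 in the authors' deposited table. The gal11Δ med3Δ mutant was labelled MATα with med3Δ::kanMX4 and med15Δ::kanMX4 in the his3Δ1 leu2Δ0 met15Δ0 ura3Δ0 background. The gal11-myc med3Δ mutant was labelled MATa his3Δ1 leu2Δ0 ura3Δ0, with srb4Δ::kanMX covered by a CEN LEU2 SRB4 plasmid, a GAL11-13MYC::HIS3MX allele that tags Gal11 with myc, and med3Δ::URA3. BY4742 was labelled MATa his3Δ1 leu2Δ0 lys2Δ0 ura3Δ0. All groups share the his3Δ1, leu2Δ0 and ura3Δ0 alleles, and no label lists an ade mutation. The labels do not say whether the replicates came from separate cultures, so p-values measure only the spread between these arrays. RNA came from whole cultures, so fewer cells of a state and less RNA per cell cannot be told apart.

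The strain markers bear on these labels. GAL11 differed from wild type by -6.43 ± 0.15 (log2 difference ± SE, n = 3 arrays a group) in gal11Δ med3Δ in YPD, and PGD1, the gene of Med3, by -4.51 ± 0.14. In gal11-myc med3Δ the YPD difference was -0.59 ± 0.15 for GAL11 and -4.30 ± 0.14 for PGD1. LYS2 differed by -6.50 ± 0.13 in gal11Δ med3Δ, whose label lists no lys2 allele. That mutant and the wild type also differ in mating type, with the a-factor gene MFA2 at -7.65 ± 0.13 and the alpha-factor gene MF(ALPHA)1 at 7.39 ± 0.15 in YPD. The deletion of Mediator subunits, the mating type and the LYS2 difference therefore cannot be told apart in gal11Δ med3Δ, and the markers and the plasmid cannot be told apart from the mutation in gal11-myc med3Δ. The label of gal11-myc med3Δ lacks met15Δ0, but its MET17 (MET15) signal differed from that of the met15Δ0 wild type by 0.08 ± 0.13 in YPD and 0.04 ± 0.13 in CSM (adjusted p = 0.68 and 0.851).

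The deposited values are log2 signals centred for each probe set on its median within the 9 YPD arrays, within the 9 CSM arrays and within the 3 BY4742 arrays. A value of 0 is thus the middle array of its set and not an absence of signal, and neither levels of different genes nor levels in different media can be compared. All differences below are mutant minus wild type within 1 medium unless stated. A gene is said to rise or fall when its adjusted p is under 0.05 in a limma fit to all 5449 genes. The groups of a gene do not overlap where the lowest array of one exceeds the highest of the other. Unless stated, the SE also comes from that fit, where all groups in both media share 1 estimate of the spread. A gene thus has the same SE in YPD and CSM even where its arrays spread unequally. ADE17 has 0.35 in both, while its gal11-myc med3Δ SDs were 0.79 in YPD and 0.10 in CSM.

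In YPD, 5 of the 9 measured members rose in gal11Δ med3Δ and 0 fell. Of all genes, 27.5% rose and 19.4% fell in that comparison. At an unadjusted p under 0.05 in limma the count of members was also 5, with 0 lower. Shares of all genes at that unadjusted threshold are not given here or below, so these counts have no background. The members that rose were ADE4, ADE2, ADE1, ADE13 and ADE3, by 1.30-fold to 2.04-fold. ADE3 alone also reached 2-fold, which 7.47% of all genes did. The median difference of the members was 0.37, beside 0.03 for all genes, and 0.24 without gal11Δ med3Δ array 3. The 5 that rose were also the members whose groups did not overlap, a pattern that 52.4% of all genes showed. With the YPD arrays fitted alone, the spread held no CSM array. ADE3, ADE4 and ADE2 then passed (adjusted p = 0.0125, 0.0202 and 0.0226), and ADE1 and ADE13 did not (0.0585 and 0.149). The share of all genes that passed in that fit is not given here.

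ADE4 encodes the amidotransferase of the first committed step. Its centred log2 values in YPD were -0.27, 0.00 and -0.88 on wild-type arrays 1 to 3, and 0.33, 0.39 and 0.56 in gal11Δ med3Δ. Every mutant array lay above every wild-type array, and wild-type array 3 was the lowest of all. The difference was 0.81 ± 0.18 (adjusted p = 0.00133).

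ADE2 and ADE1 encode the next enzymes in the order of the pathway for which a rise was found, a carboxylase and SAICAR synthetase. ADE2 stood at -0.23, 0.00 and -0.30 in wild type and at 0.56, 0.37 and 0.84 in gal11Δ med3Δ, a difference of 0.77 ± 0.19 (adjusted p = 0.00295). ADE1 stood at -0.25, -0.06 and -0.07 in wild type and at 0.31, 0.33 and 0.77 in the mutant, a difference of 0.60 ± 0.17 (adjusted p = 0.00899). For both genes the groups were apart, with mutant array 3 the highest. Without gal11Δ med3Δ array 3 the ADE1 difference was 0.45 and no longer passed (adjusted p = 0.0537).

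ADE13 encodes adenylosuccinate lyase, which acts both on the way to IMP and in the branch to AMP. Its wild-type values were -0.21, -0.02 and 0.00, and the gal11Δ med3Δ values were 0.15, 0.19 and 0.56. The rise of 0.37 ± 0.14 (adjusted p = 0.0399) was the smallest of the 5. It no longer passed without wild-type array 1 (0.31, adjusted p = 0.138), wild-type array 2 (0.40, adjusted p = 0.0606) or gal11Δ med3Δ array 3 (0.24, adjusted p = 0.193). Nor did it pass without BY4742 (adjusted p = 0.0524), which enters only the shared spread, or with all probe sets tested. In all, 9 settings ended the call.

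ADE3 encodes the cytoplasmic C1-tetrahydrofolate synthase, which supplies the one-carbon units. It stood at -0.92, -0.74 and -0.27 in wild type and at 0.24, 0.18 and 0.73 in gal11Δ med3Δ. The difference of 1.03 ± 0.18 (adjusted p = 0.000178) was the largest among the members in YPD. ADE3 was also the member with the most even rise when arrays of the same number were set against each other, at 1.156, 0.924 and 1.002 for numbers 1, 2 and 3.

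The other 4 members did not pass the test in gal11Δ med3Δ in YPD, and all 4 had overlapping groups. ADE8 encodes GAR transformylase, the early step that adds a one-carbon unit. It stood at 0.00, 0.21 and 0.12 in wild type and at -0.03, -0.03 and 0.39 in the mutant, a difference of 0.00 ± 0.14 (adjusted p = 0.987). ADE6, whose product FGAM synthetase follows, stood at 0.00, 0.08 and 0.46 in wild type and at -0.11, -0.15 and 0.53 in the mutant, a difference of -0.09 ± 0.19 (adjusted p = 0.722). In both genes mutant arrays 1 and 2 lay below the wild-type arrays and mutant array 3 did not. ADE12, for adenylosuccinate synthetase at the start of the AMP branch, stood at -0.17, 0.03 and 0.06 in wild type and at -0.13, -0.08 and 0.20 in the mutant, a difference of 0.02 ± 0.11 (adjusted p = 0.874).

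ADE17 encodes the enzyme that closes the ring to IMP. It had the largest SD of the members in both mutants in YPD, while in wild type ADE4 did (0.45). Its YPD values were -0.34, 0.19 and 0.48 in wild type, 0.00, -0.31 and 1.02 in gal11Δ med3Δ, while gal11-myc med3Δ had -0.36, -0.34 and 1.02. The SDs were 0.41, 0.69 and 0.79 in that order, and array 3 was the highest in each group. The differences were 0.12 ± 0.35 (adjusted p = 0.788) in gal11Δ med3Δ and -0.0048 ± 0.35 (adjusted p = 0.995) in gal11-myc med3Δ.

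**Figure D1:**
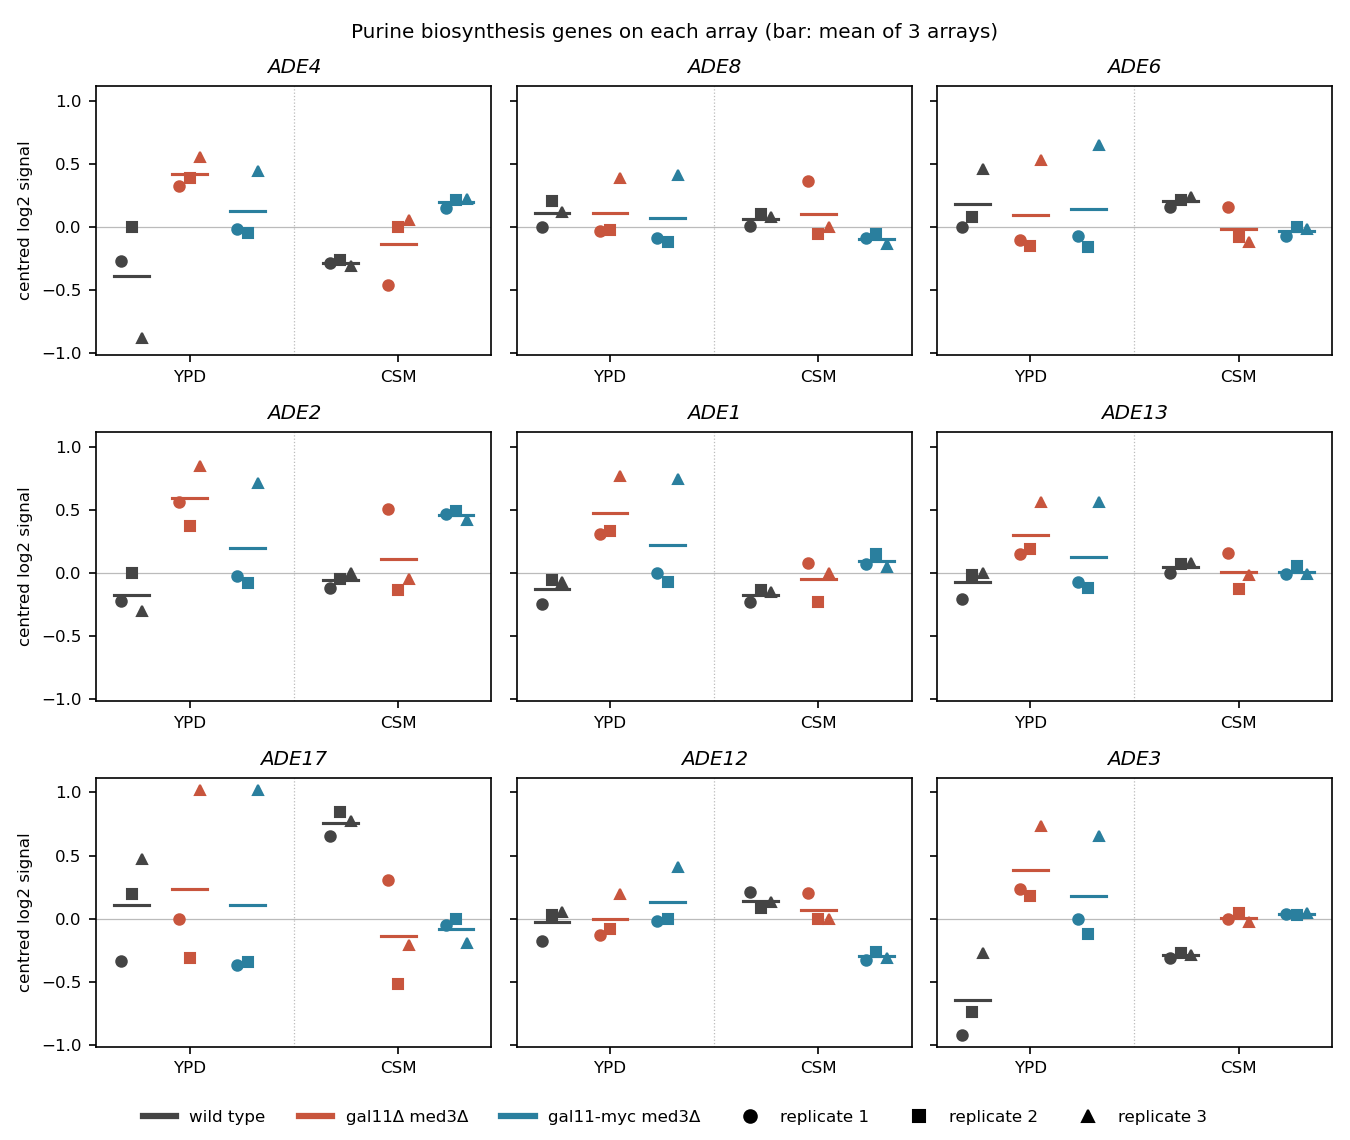
Centred log2 signal (vertical axis) of the 9 measured members on each of the 18 wild-type and mutant arrays, by medium; point shape is the replicate number and the bar is the mean of 3 arrays. In YPD replicate 3 (triangles) is the highest array of both mutants for all 9 members, and in CSM the wild-type and gal11-myc med3Δ arrays lie close together within their groups.

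In gal11-myc med3Δ in YPD, 2 of the 9 members rose, ADE3 and ADE4, and 0 fell. Of all genes, 21.2% rose and 12.1% fell. At an unadjusted p under 0.05 in limma the members were the same 2. None of the 9 members rose or fell by 2-fold or more, beside 4.33% of all genes. ADE3 was the member whose groups did not overlap (42.0% of all genes), with mutant values of 0.00, -0.12 and 0.66 against -0.92, -0.74 and -0.27 in wild type. It rose by 0.82 ± 0.18 (adjusted p = 0.0019).

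ADE4 in the same mutant stood at -0.01, -0.05 and 0.44, which overlapped the wild-type values at array 2. Its difference was 0.51 ± 0.18 (adjusted p = 0.0345). It did not pass with the replicate number as a block (adjusted p = 0.066) or with the YPD arrays fitted alone (adjusted p = 0.128), where ADE3 did (adjusted p = 0.0426). Nor did ADE4 pass without wild-type array 3 (0.26, adjusted p = 0.18) or gal11-myc med3Δ array 3 (0.35, adjusted p = 0.169). Set against the wild-type array of the same number, ADE4 differed by 0.26, -0.05 and 1.32. With the block ADE1 passed instead, with a difference of 0.35 ± 0.17 (adjusted p = 0.133 without the block and 0.0465 with it). Its mutant values were 0.00, -0.07 and 0.74, so that 1 array stood well above the other two. Without gal11-myc med3Δ array 2 the ADE1 difference was 0.50 (adjusted p = 0.0472).

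The remaining members of gal11-myc med3Δ in YPD showed the same form, with arrays 1 and 2 close together and array 3 higher. ADE2 stood at -0.03, -0.08 and 0.71, a difference of 0.38 ± 0.19 (adjusted p = 0.138). ADE13 stood at -0.07, -0.12 and 0.56, a difference of 0.20 ± 0.14 (adjusted p = 0.31). The differences of ADE12, ADE6 and ADE8 were 0.16 ± 0.11, -0.04 ± 0.19 and -0.04 ± 0.14. The median over the members was 0.20, beside 0.03 for all genes. It was 0.018 without gal11-myc med3Δ array 3, 0.320 without gal11-myc med3Δ array 2 and 0.132 without wild-type array 1.

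The YPD replicates of the mutants thus differed most in array 3. It was the highest of the 3 arrays for 9 of 9 members in gal11Δ med3Δ and for 9 of 9 in gal11-myc med3Δ, whereas it was the highest for 31.2% and 41.1% of all genes. Array 3 lay above the mean of the other two by a median of 0.41 in gal11Δ med3Δ, from 0.20 for ADE4 to 1.17 for ADE17. In gal11-myc med3Δ the median was 0.72, from 0.42 for ADE12 to 1.37 for ADE17. Over all genes the medians were -0.05 and -0.01. In wild type array 3 was the highest for 5 members and the lowest for 2, beside 40% and 46.6% of all genes. Its offsets ran from -0.74 for ADE4 to 0.56 for ADE3, with a median of 0.11, beside -0.02 for all genes. Wild-type array 1 was the lowest for 7 of 9 members, beside 22.6% of all genes. Its median offset was -0.20 for the members and 0.01 for all genes.

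The same is seen in the SDs. The median SD of the members in YPD was 0.16 in wild type, 0.24 in gal11Δ med3Δ and 0.42 in gal11-myc med3Δ. Over all genes these medians were 0.14, 0.11 and 0.12. All 9 members lay above the all-gene median SD in both mutants, and 5 of 9 did in wild type. In CSM the members' median SDs were 0.05 in wild type, 0.16 in gal11Δ med3Δ and 0.04 in gal11-myc med3Δ, beside 0.06, 0.14 and 0.05 over all genes.

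Some genes around the pathway were offset on the same arrays and others were not, so those named here are examples. On YPD array 3, 14.9% of all genes in wild type, 9.4% in gal11Δ med3Δ and 13% in gal11-myc med3Δ had offsets over 0.3. In gal11-myc med3Δ the offsets of SHM1, MIS1, MET7, HIS1 and HIS6 were -0.09, 0.07, -0.08, -0.02 and -0.17. Those of SHM2 and HIS5 were 0.67 and 0.54. Array 3 of gal11-myc med3Δ in YPD lay above the other two by 1.18 for MTD1, which encodes a folate dehydrogenase, by 1.01 and 1.10 for GCV1 and GCV2 of the glycine cleavage complex, and by 1.14 for HIS4 of histidine synthesis. In wild type the offsets were 0.25, 0.56, 1.39 and 0.60, and in gal11Δ med3Δ they were 0.58, 0.60, 0.71 and 0.81, in the same order. AAH1, the adenine deaminase gene, was offset the other way in all 3 groups, by -0.66 in wild type, -0.40 in gal11Δ med3Δ and -0.64 in gal11-myc med3Δ. ADE16, the second gene for the activity of ADE17, had offsets of -0.02, 0.17 and -0.02. On gal11-myc med3Δ array 3, LEU2, the marker of the plasmid, had an offset of -2.825. The part of these arrays in the members' differences was not tested beyond leaving them out.

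**Figure D2:**
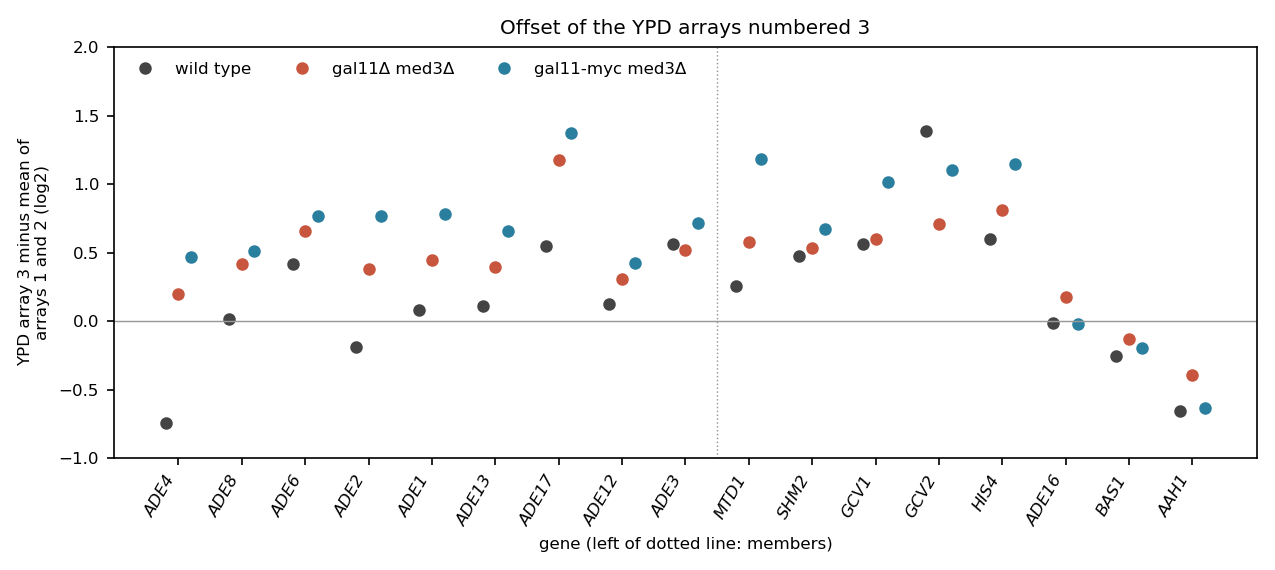
Offset of array 3 from the mean of arrays 1 and 2 in YPD (log2, vertical axis) for the 9 members, left of the dotted line, and 8 other genes, with 1 point for each of wild type, gal11Δ med3Δ and gal11-myc med3Δ. All 9 members lie above 0 in both mutants, with ADE17 the highest at 1.17 and 1.37, while the wild-type points run from -0.74 to 0.56 among the members.

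Without array 3 of both mutants, a setting chosen after these data were seen, the 5 rises in gal11Δ med3Δ in YPD passed. They were then 0.74 for ADE4, 0.64 for ADE2, 0.45 for ADE1, 0.24 for ADE13 and 0.85 for ADE3, with adjusted p from 6.23e-05 for ADE3 to 0.0215 for ADE13. ADE6 passed as lower (-0.31, adjusted p = 0.0302). In gal11-myc med3Δ only ADE3 passed (0.59, adjusted p = 0.00239), and the differences of ADE4, ADE1 and ADE2 were 0.35, 0.09 and 0.12. This setting also takes those arrays out of the shared spread, so passing in it does not show that a rise is independent of them. The ADE13 rise shrank from 0.37 to 0.24 while its adjusted p went from 0.0399 to 0.0215. With only gal11Δ med3Δ array 3 left out, the adjusted p of ADE13 was 0.193. The share of all genes that passed in this setting is not given here.

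In gal11Δ med3Δ in CSM, 0 of the 9 members rose and 1 fell, beside 27.1% and 18.4% of all genes. At an unadjusted p under 0.05 in limma the count was also 1. The member was ADE17, which stood at 0.65, 0.84 and 0.77 in wild type and at 0.31, -0.52 and -0.20 in the mutant. Its difference was -0.89 ± 0.35 (adjusted p = 0.0448), a 1.86-fold lower signal. No member passed at 2-fold, which 9.29% of all genes did, and 2 members had groups that did not overlap, beside 58.2% of all genes. These were ADE17 and ADE3, whose values were -0.31, -0.27 and -0.29 in wild type and 0.00, 0.04 and -0.02 in the mutant, a difference of 0.30 ± 0.18 (adjusted p = 0.194).

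Leaving out single arrays ended the ADE17 call in 10 of 18 cases, with values from -0.94 to -0.70 and adjusted p from 0.051 to 0.16. The 10 arrays were wild-type array 2 and gal11Δ med3Δ array 1 in YPD, all wild-type and all gal11-myc med3Δ arrays in CSM, and gal11Δ med3Δ arrays 2 and 3 in CSM. The other 7 members of gal11Δ med3Δ in CSM ranged from -0.22 ± 0.19 for ADE6 to 0.16 ± 0.19 for ADE2, with adjusted p from 0.375 to 0.842. Array 1 of that group stood apart, with ADE2 at 0.50 against -0.14 and -0.05, and ADE4 at -0.46 against 0.00 and 0.05. It was the highest array for 7 of 9 members and for 58.7% of all genes. Without it the members' median was -0.09, against 0.04 with it.

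In gal11-myc med3Δ in CSM, 2 members rose and 1 fell, beside 22.4% and 14.2% of all genes. ADE2 rose by 0.52 ± 0.19 (adjusted p = 0.0387), from -0.12, -0.05 and 0.00 in wild type to 0.47, 0.49 and 0.42. ADE4 rose by 0.48 ± 0.18 (adjusted p = 0.0415), from -0.28, -0.26 and -0.31 to 0.15, 0.22 and 0.23. For these 2 genes the 3 arrays of each group lay close together and the groups were apart.

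ADE12 was the member that fell, with a difference of -0.44 ± 0.11 (adjusted p = 0.00409). It stood at 0.21, 0.08 and 0.13 in wild type and at -0.32, -0.26 and -0.31 in gal11-myc med3Δ. ADE17 stood at -0.05, 0.00 and -0.19 against 0.65, 0.84 and 0.77 in wild type, and its difference of -0.84 ± 0.35 did not pass (adjusted p = 0.0697). No member passed at 2-fold, beside 6.22% of all genes. For 8 of 9 members the groups did not overlap, 4 higher and 4 lower, beside 70.7% of all genes. The 4 higher were ADE1, ADE2, ADE3 and ADE4, and the 4 lower were ADE6, ADE8, ADE12 and ADE17.

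The rises of ADE2 and ADE4 in CSM each lost their call without any 1 of the 3 wild-type or 3 gal11-myc med3Δ CSM arrays. The values then lay between 0.48 and 0.54 for ADE2 (adjusted p from 0.0669 to 0.107) and between 0.47 and 0.51 for ADE4 (adjusted p from 0.0741 to 0.0998). ADE4 also lost its call without BY4742 (adjusted p = 0.0557), where ADE2 kept it (0.0489). ADE17 in turn passed without gal11Δ med3Δ YPD array 3 (adjusted p = 0.0373) or gal11-myc med3Δ YPD array 3 (adjusted p = 0.023), since all arrays share 1 estimate of the spread.

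With the 9 CSM arrays fitted alone, that estimate holds no YPD array. In gal11-myc med3Δ 7 members then passed, 4 higher and 3 lower, beside 44.5% of all genes in either direction. ADE3 rose by 0.32 ± 0.04 (adjusted p = 0.000315) and ADE1 by 0.26 ± 0.08 (adjusted p = 0.0254), beside ADE2 (adjusted p = 0.0186) and ADE4 (adjusted p = 0.0104). The differences of the 3 that fell were -0.84 ± 0.18 for ADE17 (adjusted p = 0.00465), -0.44 ± 0.07 for ADE12 (adjusted p = 0.000749) and -0.23 ± 0.08 for ADE6 (adjusted p = 0.0328). In gal11Δ med3Δ 3 members passed, 1 higher and 2 lower, beside 52.6% of all genes. These were ADE3 at 0.30 ± 0.04 (adjusted p = 0.000414), ADE17 at -0.89 ± 0.18 (adjusted p = 0.00267) and ADE6 at -0.22 ± 0.08 (adjusted p = 0.0372).

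**Figure D3:**
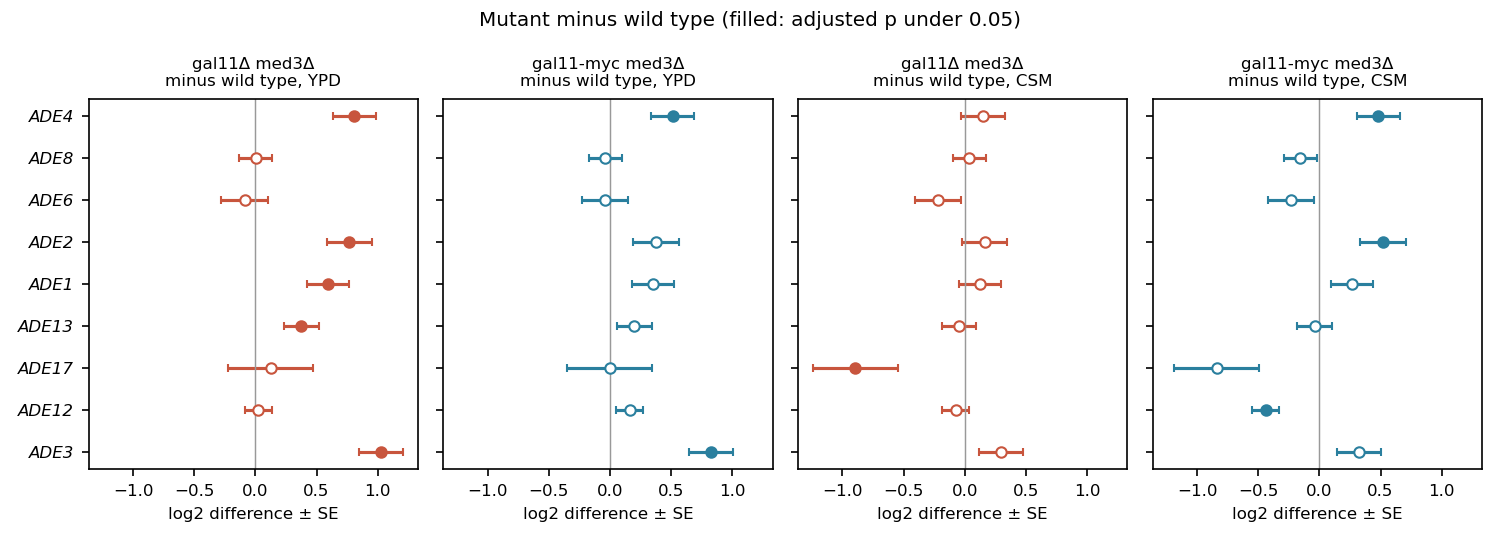
Mutant minus wild type (log2 difference, horizontal axis, with its SE) for the 9 measured members in both mutants and media; filled points passed at an adjusted p under 0.05. In YPD the points of ADE4, ADE2, ADE1, ADE13 and ADE3 lie to the right of 0 in both mutants, and in CSM those of ADE17 lie farthest to the left, at -0.89 and -0.84.

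The mutants were also set against each other. In YPD 0 of 9 members passed in limma for gal11-myc med3Δ minus gal11Δ med3Δ, with 0 at an unadjusted p under 0.05, beside 15.1% of all genes at the adjusted threshold. The differences ran from -0.39 ± 0.19 for ADE2 to 0.13 ± 0.11 for ADE12. With the replicate block ADE3 passed as lower in gal11-myc med3Δ (-0.20, adjusted p = 0.0435). Without gal11-myc med3Δ array 3 there were 3 that passed, ADE1 (-0.51, adjusted p = 0.0127), ADE2 (-0.65, adjusted p = 0.00933) and ADE13 (-0.39, adjusted p = 0.0168). Shares of all genes with the block or without that array are not given here. In CSM 1 member passed, beside 17.9% of all genes. ADE12 was lower in gal11-myc med3Δ, with a difference of -0.37 ± 0.11 (adjusted p = 0.0277). Its call was lost without gal11Δ med3Δ array 1 or any of the 3 gal11-myc med3Δ arrays in CSM (adjusted p from 0.063 to 0.0885).

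The difference of a mutant from wild type was compared between media as an interaction, CSM difference minus YPD difference. In gal11Δ med3Δ 1 of 9 members passed, beside 31.1% of all genes. ADE3 differed by -0.73 ± 0.25 (adjusted p = 0.0367), its difference being 1.03 in YPD and 0.30 in CSM. The values were -0.66 ± 0.25 for ADE4 (adjusted p = 0.0552), -0.61 ± 0.26 for ADE2 (adjusted p = 0.0932) and -1.02 ± 0.49 for ADE17 (adjusted p = 0.129). The ADE3 interaction lost its call without any 1 of 9 arrays, with values from -0.75 to -0.56 and adjusted p from 0.052 to 0.101. These were wild-type arrays 1 and 2 and gal11Δ med3Δ array 3 in YPD, and all wild-type and gal11Δ med3Δ arrays in CSM. Without gal11-myc med3Δ YPD array 3, which enters only the shared spread, 5 members passed, and with the replicate block 3 did. Shares of all genes in these settings are not given here, so these counts have no background.

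In gal11-myc med3Δ the interaction passed for 1 member, beside 13.7% of all genes. It was ADE12, at -0.60 ± 0.15 (adjusted p = 0.014), with a difference of 0.16 in YPD and -0.44 in CSM. This interaction and the fall of ADE12 in CSM passed under every other setting that could give them with the threshold of 0.05 and no minimum size. ADE2 and ADE4 had interactions of 0.14 ± 0.26 and -0.03 ± 0.25 (adjusted p = 0.774 and 0.961), so that their differences in the 2 media were not told apart. With the replicate block 2 members passed, and the share of all genes in that setting is not given here.

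The genes that feed and follow the pathway were taken from lists chosen with earlier results of these data known. Of 10 other purine synthesis genes, 3 rose and 6 fell in gal11Δ med3Δ in YPD (27.5% and 19.4% of all genes). In CSM 5 rose and 2 fell (27.1% and 18.4%). In gal11-myc med3Δ 2 rose and 2 fell in YPD (21.2% and 12.1%), and 7 rose and 2 fell in CSM (22.4% and 14.2%). Their medians were -0.21, 0.17, -0.06 and 0.31 in that order, beside 0.03, 0.04, 0.03 and 0.06 for all genes.

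IMD2, for IMP dehydrogenase at the start of the GMP branch, rose in all 4 comparisons. Its differences were 1.28 ± 0.21 and 1.65 ± 0.21 in gal11Δ med3Δ in YPD and CSM, and 1.54 ± 0.21 and 1.86 ± 0.21 in gal11-myc med3Δ. Its probe set carries the array maker's suffix for probes that can also match other transcripts, and it has near-identical copies in the genome, so its values are uncertain. IMD4 of the same family differed by -0.30 ± 0.07 and 0.41 ± 0.07 in gal11Δ med3Δ in YPD and CSM, and in gal11-myc med3Δ in CSM by 0.56 ± 0.07. IMD3 differed by -0.18 ± 0.06, 0.15 ± 0.06 and 0.44 ± 0.06 in the same 3 comparisons. Both genes thus fell in gal11Δ med3Δ in YPD and rose in both mutants in CSM. In gal11-myc med3Δ in YPD neither passed, with IMD4 at -0.0093 ± 0.07 and IMD3 at 0.07 ± 0.06.

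The PRS genes encode the subunits that make PRPP. PRS2 rose by 0.73 ± 0.07 in gal11Δ med3Δ in YPD and by 0.27 ± 0.07 in CSM, and PRS1 differed by -0.34 ± 0.08 in YPD. In CSM PRS4 differed by -0.63 ± 0.10 in gal11Δ med3Δ and by -0.51 ± 0.10 in gal11-myc med3Δ. ADE16, which shares the activity of ADE17, rose by 0.21 ± 0.06 (adjusted p = 0.0129) in gal11Δ med3Δ in YPD. It also rose in gal11-myc med3Δ, by 0.29 ± 0.06 in YPD (adjusted p = 0.00225) and by 0.26 ± 0.06 in CSM (adjusted p = 0.00369), where the difference of ADE17 was -0.84.

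The regulator genes BAS1 and PHO2 passed in 1 of these comparisons, with PHO2 at -0.29 ± 0.09 (adjusted p = 0.0142) in gal11-myc med3Δ in YPD. Of 12 one-carbon and glycine genes, 4 rose and 1 fell in YPD in each mutant. The shares of all genes there were 27.5% and 19.4% for gal11Δ med3Δ, beside 21.2% and 12.1% for gal11-myc med3Δ. In CSM 2 rose and 4 fell in gal11Δ med3Δ (27.1% and 18.4% of all genes). With gal11-myc med3Δ 1 rose and 2 fell in that medium (22.4% and 14.2%). MTD1 and GCV1 rose by 0.79 ± 0.25 and 1.31 ± 0.31 in gal11Δ med3Δ in YPD, and GCV2 by 1.20 ± 0.36 in gal11-myc med3Δ in YPD. MIS1, the mitochondrial counterpart of ADE3, fell in all 4 comparisons, with YPD and CSM differences of -0.76 ± 0.09 and -1.03 ± 0.09 in gal11Δ med3Δ, and of -0.29 ± 0.09 and -0.62 ± 0.09 in gal11-myc med3Δ. MIS1 thus fell in YPD, where ADE3 rose, and also in CSM, where ADE3 did not pass in the fit to all arrays.

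Histidine synthesis releases an intermediate that ADE17 and ADE16 use. Of 6 histidine genes, 3 rose and 0 fell in YPD in each mutant. The shares of all genes there were 27.5% and 19.4% for gal11Δ med3Δ, beside 21.2% and 12.1% for gal11-myc med3Δ. In CSM 2 rose and 2 fell in gal11Δ med3Δ (27.1% and 18.4% of all genes). With gal11-myc med3Δ 0 rose and 3 fell in that medium (22.4% and 14.2%). HIS7, whose product releases that intermediate, rose by 0.62 ± 0.08 and 0.73 ± 0.08 in YPD and differed by -0.49 ± 0.08 in gal11-myc med3Δ in CSM. HIS4 had the largest fall, with -0.76 ± 0.27 in gal11Δ med3Δ and -1.90 ± 0.27 in gal11-myc med3Δ in CSM. HIS1, for the first step, differed by 0.48 ± 0.06 in gal11Δ med3Δ in YPD, and by -0.43 ± 0.06 and -0.94 ± 0.06 in the mutants in CSM.

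Of 18 genes of purine uptake, salvage and interconversion, 4 rose and 5 fell in gal11Δ med3Δ in YPD (27.5% and 19.4% of all genes). In CSM 9 rose and 6 fell (27.1% and 18.4%). In gal11-myc med3Δ 1 rose and 3 fell in YPD (21.2% and 12.1%), and 7 rose and 2 fell in CSM (22.4% and 14.2%). AAH1, the adenine deaminase gene, differed by -1.27 ± 0.19 and -0.55 ± 0.19 in gal11Δ med3Δ in YPD and CSM. HPT1, which salvages hypoxanthine and guanine, differed by -0.98 ± 0.08 in gal11Δ med3Δ in CSM and by -0.49 ± 0.08 in gal11-myc med3Δ in YPD. FCY21 and FCY22, of the purine-cytosine permease family, rose by 1.19 ± 0.18 and 0.93 ± 0.11 in gal11Δ med3Δ in YPD, and FCY22 by 1.35 ± 0.11 in gal11-myc med3Δ in CSM. RNR1, the large subunit of ribonucleotide reductase, fell in all 4 comparisons, with differences from -1.29 ± 0.11 to -0.54 ± 0.11.

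**Figure D4:**
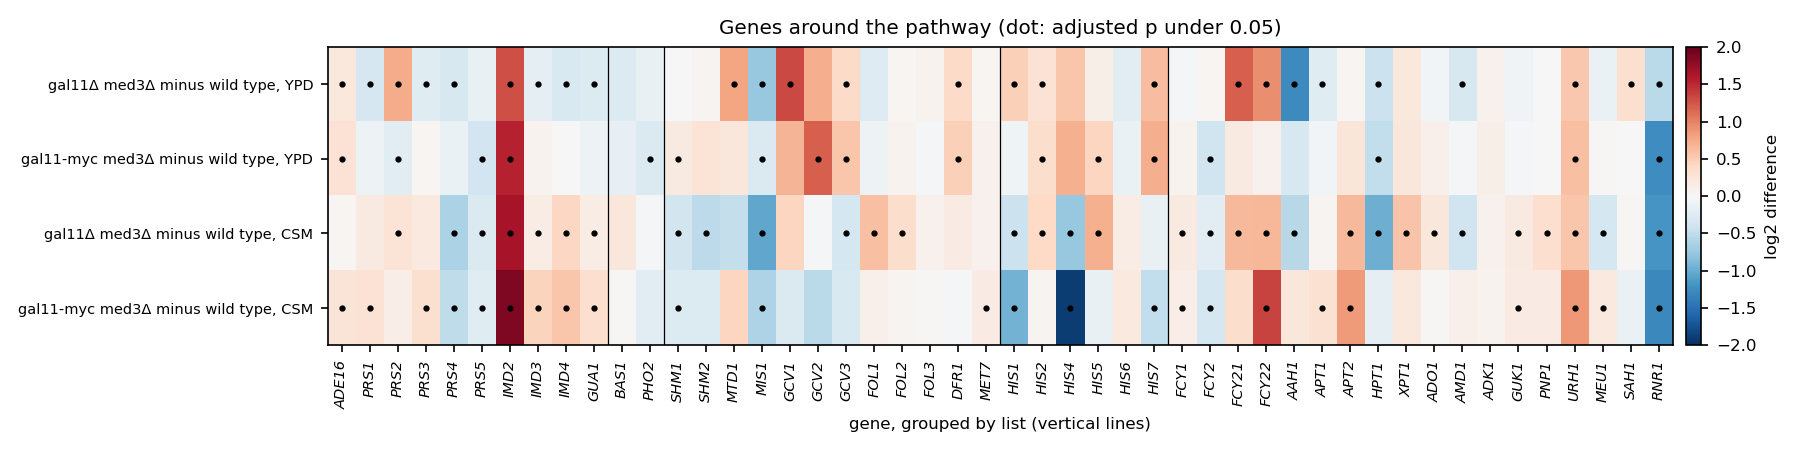
Mutant minus wild type (log2 difference, colour scale from -2 to 2) for the genes of 5 lists around the pathway in the 4 comparisons; a dot marks an adjusted p under 0.05 and vertical lines separate the lists. IMD2 lies between 1.28 and 1.86 in the 4 rows and is the highest gene in each but that of gal11Δ med3Δ in YPD, where GCV1 is higher at 1.31, and HIS4 in gal11-myc med3Δ in CSM is the lowest cell, at -1.90.

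The members were more alike across the YPD arrays than across the CSM arrays. Over the 9 YPD arrays the 36 pairs of members had Pearson r from 0.022 to 0.985 with a median of 0.716, and 0 were negative. Over the 9 CSM arrays r ran from -0.928 to 0.937 with a median of 0.202, and 16 of 36 were negative. Against the mean of the other members, ADE13 had the highest r in both media (0.991 in YPD and 0.969 in CSM) and ADE4 the lowest (0.591 and -0.685). These values describe arrays that share 3 groups and, in YPD, the offset of array 3.

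Outside the members, the 10 genes of highest r with the members' mean over the 9 YPD arrays were SPO75 (0.969), YOR365C (0.953), MTD1 (0.951), ECM23 (0.940), YGR035W-A (0.939), SLA1 (0.938), MEF1 (0.9325), YFL068W (0.920), MET13 (0.920) and ATR1 (0.9185). Over the 9 CSM arrays they were IMP3 (0.949), GIC1 (0.9395), CST9 (0.928), TIF6 (0.918), CLB3 (0.914), SNP1 (0.914), NAF1 (0.9115), RAD57 (0.910), RPN10 (0.904) and GPA2 (0.902). No gene was in both lists. Of 5440 other genes, 16 had r over 0.9 in YPD and 10 in CSM. With Spearman's rho in place of Pearson's r, 3 of the 10 genes stayed among the top 10 in each medium.

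The authors' deposited table gives its own fold changes and corrected p-values. In YPD the authors' deposited table had 0 of 9 members at a corrected p under 0.05, both in gal11Δ med3Δ (13.8% of its probe sets) and in gal11-myc med3Δ (5.18%). In gal11Δ med3Δ the authors' deposited table gave ADE3 2.062-fold (corrected p = 0.0841), ADE4 1.776-fold (0.154) and ADE2 1.719-fold (0.056), the latter being the lowest corrected p of a member there. In CSM the authors' deposited table had 1 member at that threshold in gal11Δ med3Δ (16.3% of its probe sets), ADE3 at 1.227-fold (corrected p = 0.00478). In gal11-myc med3Δ in CSM the authors' deposited table had 7 of 9 (27.5%), namely ADE1, ADE2, ADE3, ADE4, ADE6, ADE12 and ADE17, the same 7 that passed with the CSM arrays fitted alone.

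That table also holds the comparison it heads BY4741 vs BY4742 in YPD, which the centred values cannot give. In the authors' deposited table none of the 9 members had a corrected p under 0.05 there, with 0.503 the lowest, and 0.174% of its probe sets did. The members' signed folds in the authors' deposited table ran from -1.236 for ADE4 to 1.631 for ADE17, with 8 of 9 positive and ADE3 at 1.417. LYS2 was at -88.38, MET17 at 440.5, MFA2 at -163.7 and MF(ALPHA)1 at 477.5 in the authors' deposited table. Since BY4742 is the strain labelled lys2Δ0 and BY4741 the one labelled met15Δ0 (MET17 is the same gene), a positive sign there goes with a higher signal in BY4742, against the order of the heading, if the labels hold. The mating-type genes differ although both strains are labelled MATa. The LYS2 and mating-type differences are also those between gal11Δ med3Δ and wild type, and their part in the members' YPD differences was not tested.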

How the data were processed

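Arrays were grouped by their titles. The deposited value table holds log2 signals of 10928 probe sets; RMA is named, without a version, per the submitters' processing notes, and the log2 base was read from the values. The authors' deposited table, headed by GeneSpring 11.5.1 per the file headers, holds signed linear fold changes (a score, not a log2 value) and p-values and corrected p-values whose test is not given in the sources used here. Its folds match differences of the value table within 0.001 (log2) for 100% of probe sets in CSM, but for 2.74% (gal11Δ med3Δ) and 2.80% (gal11-myc med3Δ) in YPD. In the value table the median of every probe set (100%) is 0 within each of the 3 array sets.

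Probe sets with 1 symbol (7244) were matched to the R64 gene table, used for names only (5498 matched). Probe sets of a gene were averaged (47 genes), leaving 5449 genes. limma 3.58.1 (R 4.3.3; lmFit and eBayes) was fitted to all 21 arrays as 7 group means with 14 residual degrees of freedom, 2-sided, with Benjamini-Hochberg adjustment over the 5449 genes, and was tested on simulated data. The simulated noise was independent between arrays, with the same spread of a gene in all groups. It therefore does not test the fit under unequal spread or paired arrays. Array intensity over background was not used, since centring removed it, and the number of arrays limits the precision. An exact permutation test of 3 against 3 arrays cannot go below p = 0.1. Named genes were all members, at most 4 genes with the largest passing differences per list and comparison, the 10 most alike genes per medium and strain markers.

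The members and lists were chosen with earlier results of these data known. Same-numbered YPD arrays of different groups deviated together (r from 0.146 to 0.606 in 9 of 9 pairs), so the title numbers were taken to pair them. Differently numbered YPD pairs ran from -0.534 to 0.45 (5 of 18 over 0.1), so the numbers set the arrays apart only in part. In CSM same-numbered r ran from -0.215 to 0.221 (2 of 9 over 0.1) and they were not taken to pair. The main fit holds no block, and the pairing enters only the alternative with the replicate block and the same-numbered differences. Alternatives left out arrays or BY4742, fitted 1 medium, used the replicate block, array weights, a robust prior, all probe sets, other averaging, array medians of 0, stricter thresholds or the authors' corrected p. Promoter motifs were not analysed here.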

Additional observations from a re-analysis of the deposited data

Results flagged for a closer look

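For 2 members the effect of a mutant differed between media by the interaction test, 1 of 9 in each mutant. Of all genes, 31.1% passed that test in gal11Δ med3Δ and 13.7% in gal11-myc med3Δ. The difference of ADE3 between gal11Δ med3Δ and wild type was smaller in CSM than in YPD, with an interaction of -0.73 (adjusted p = 0.0367). This call was lost without any 1 of 9 of the 18 arrays (adjusted p from 0.052 to 0.101). The difference of ADE12 between gal11-myc med3Δ and wild type went from 0.16 in YPD to -0.44 in CSM, with an interaction of -0.60 (adjusted p = 0.014). Groups of 3 arrays were too small for a test of single arrays against their group.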

How the results depend on the processing

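Of the 2178 member values recomputed under 31 other settings, 1936 kept their direction and side of the threshold, 81 changed sign while passing in neither, 72 no longer passed, 88 newly passed and 1 reversed. The reversal was the interaction of ADE4 in gal11-myc med3Δ, 0.223 with array weights (adjusted p = 0.0308). Of 14 passing member results, 2 passed in each of those settings that could give them, the fall of ADE12 in gal11-myc med3Δ in CSM and its interaction; neither reached 2-fold, and the interaction did not pass at an adjusted p under 0.01. Counts of members that passed are given below against the reported ones, for gal11Δ med3Δ in YPD (5) and CSM (1), gal11-myc med3Δ in YPD (2) and CSM (3), the mutants against each other in YPD (0) and CSM (1), and the interactions of gal11Δ med3Δ (1) and gal11-myc med3Δ (1). Counts within 1.5 times are left out. Apart from the shares given above, shares of all genes under these settings are not given here or in the next paragraph, so those counts have no background. With 1 medium fitted alone they were 3, 3, 1 and 7 for the 4 mutant against wild type comparisons. Without BY4742 gal11Δ med3Δ in CSM had 0. With at least 2-fold they were 1, 0, 0, 0, then 0 in CSM between the mutants and 0 and 0 for the interactions. At an adjusted p under 0.01 gal11Δ med3Δ in CSM had 0, gal11-myc med3Δ 1 in YPD and 1 in CSM, the mutants in CSM 0 and the interactions 0 and 0. With the authors' corrected p the YPD counts were 0 and 0 and gal11-myc med3Δ had 7 in CSM. With array weights, whose estimate stopped before it converged, counts were 6 in gal11Δ med3Δ in CSM, 5 and 8 for gal11-myc med3Δ, 5 and 5 between the mutants and 7 and 5 for the interactions, and the members' median was -0.119 in gal11Δ med3Δ in CSM and 0.123 between the mutants in CSM. With all probe sets tested gal11Δ med3Δ in CSM had 0, gal11-myc med3Δ in CSM 1 and the gal11Δ med3Δ interaction 0, and with array medians set to 0 that interaction had 2. Without the YPD arrays numbered 1 of all 3 groups gal11-myc med3Δ had 1 in YPD and 1 in CSM and the gal11Δ med3Δ interaction 0. Without those numbered 3, gal11Δ med3Δ in CSM had 3, gal11-myc med3Δ 1 and 7, the mutants 5 and 2 and the interactions 3 and 2. Without the arrays numbered 3 of both mutants, a setting added after seeing the data, gal11Δ med3Δ in CSM had 2, gal11-myc med3Δ 1 and 6, the mutants in YPD 2, and the interaction medians were -0.327 and 0.054. The cause of these changes was not tested.

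With the replicate block gal11Δ med3Δ in CSM had 2, where the samples share only a number, the mutants in YPD 1 and the interactions 3 and 2; the block changed no call of a member in YPD other than those of ADE1 and ADE4 in gal11-myc med3Δ and ADE3 between the mutants. Leaving out 1 of 18 arrays at a time gave 3 to 5 for gal11Δ med3Δ in YPD and 0 to 1 in CSM, 1 to 3 and 1 to 4 for gal11-myc med3Δ, 0 to 3 and 0 to 1 between the mutants, and 0 to 5 and 1 to 1 for the interactions. The members' medians then ran from 0.243 to 0.450 for gal11Δ med3Δ in YPD, from 0.018 to 0.320 for gal11-myc med3Δ in YPD, from -0.442 to -0.030 between the mutants in YPD, from -0.093 to 0.080 for gal11Δ med3Δ in CSM, from -0.556 to -0.327 for its interaction and from -0.341 to 0.054 for that of gal11-myc med3Δ. Centring leaves the signal over background unknown, so whether a member was near background was not tested. The planned promoter motifs were not run, since no promoter sequences were used here.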
